A study of Mus musculus with 26 samples.

Results

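The cells described here are Otx2-positive single cells of the postnatal mouse retina, and N1-CKO cells were compared with WT cells among them across genes. A cell was taken as Otx2-positive when the signal of the Otx2 probe set reached or passed the 90th percentile of all probe sets other than array controls. By this rule 18 of 26 cells were kept, 7 of 13 WT cells and 11 of 13 N1-CKO cells. Otx2 is a homeodomain transcription factor that commits retinal cells to the photoreceptor and bipolar fates.

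The series profiled single retinal cells on Affymetrix expression arrays, with 1 cell per array. All cells, controls included, came from mice homozygous for a floxed Notch1 allele on a C57BL/6 background, received plasmids by in vivo electroporation at postnatal day 0, and were harvested at postnatal day 3. WT cells had received CAG:GFP alone and no Cre, so WT names a plasmid control and not a separate strain. N1-CKO cells had received CAG:Cre, in which the ubiquitous CAG promoter drives the recombinase that removes the floxed part of Notch1, together with CALNL-GFP, a reporter that Cre switches on.

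Single GFP-positive cells were picked by hand, and their cDNA was primed with oligo dT and amplified by PCR. Cre acted in whichever cell type took up the plasmid, and a GFP-positive cell shows that Cre was active, not that both Notch1 copies were lost. No animal, litter or picking day is given for a cell. Each group therefore stands as 1 sample, no test was made, and every SD below is the spread over cells. Exact intervals below cover counting error over cells only, so intervals that do not overlap are no test of genotype.

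Notch1 is a cell surface receptor. When a neighbouring cell presents a Delta ligand, its intracellular part is released, joins Rbpj in the nucleus and switches on Hes and Hey repressors, which hold back the proneural factors and keep the cell a progenitor. In the postnatal retina, loss of this signal is known to let progenitors leave the cell cycle and take up the rod photoreceptor fate. Otx2 acts at the top of that fate, upstream of Crx, and Nrl then directs the cell to a rod.

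Otx2 signal in the WT cells kept ran from 2051 through a median of 18314 to 61679, and on the log2 scale from 11.00 through 14.16 to 15.91. Log2 signal in the N1-CKO cells kept ran from 12.27 through 13.88 to 16.90. These values chose the cells and are a description only. Means were 13.73 ± 1.76 (SD, n = 7 cells) in WT and 14.16 ± 1.46 (SD, n = 11 cells) in N1-CKO. Nearest to the limit among the cells kept were WT cell 3, at the 91.3th percentile of its array, WT cell 6 at the 92.9th and N1-CKO cell 11 at the 94.8th. Nearest among the cells left out was WT cell 1, at the 82.9th percentile.

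**Figure D1:**
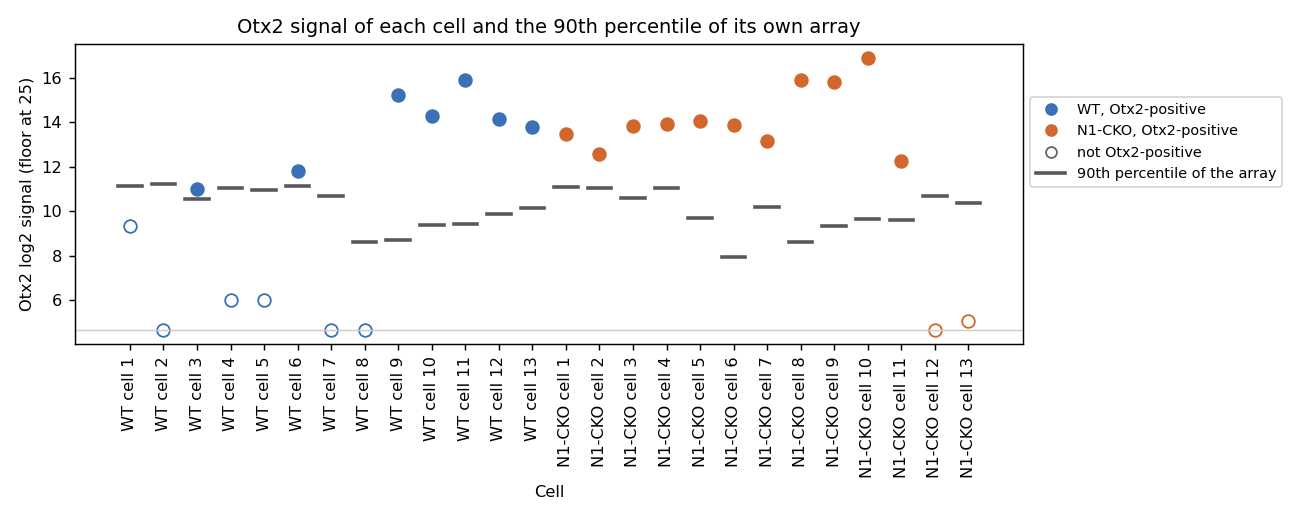
Log2 signal of Otx2 in each of the 26 cells (points, filled where the cell is Otx2-positive) with the 90th percentile of the same array (bars). The grey line marks the floor of 25, and WT cells 3 and 6 lie closest above their bars.

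The label of photoreceptor-directed cells was checked against other factors of that fate. Crx, the homeodomain factor that switches on photoreceptor genes, was detected in 6 of 7 cells of WT and 10 of 11 of N1-CKO, and in 0 of the 8 cells left out. Detection of a gene here requires a signal at or above the 90th percentile of the cell's array, so it means being among the brightest transcripts of a cell. Of the 4 factors Crx, Nrl, Neurod1 and Prdm1, all 4 were detected in 4 WT and 8 N1-CKO cells, 3 in 2 and 2 cells, and at most 2 in 1 and 1 cell. Not all of these factors were confined to the cells kept. Among the cells left out, Neurod1 was detected in 3 of 6 WT and 2 of 2 N1-CKO cells, and so was Rorb. Nrl was detected in 2 of 6 and 0 of 2 of them, and Prdm1 in 0 of 6 and 0 of 2. WT cell 3, where Nrl alone of the 4 was detected, is the cell closest to the Otx2 limit. Nr2e3 was not analysed here.

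Arrays also differed in technical measures and in the sex of the animal of origin. The signal of an 18S ribosomal RNA control probe set divided the 18 arrays into a set with high signal (12106 to 93363; 4 WT and 5 N1-CKO cells) and a set with low signal (26.9 to 693; 3 WT and 6 N1-CKO cells). The low-set WT cells are WT cells 3, 6 and 13, and WT cells 3 and 6 are the WT cells closest to the Otx2 limit. Low-set values therefore rest in part on those cells. The 3′ to 5′ ratio of the Gapdh control probe sets, a sign of how far cDNA reached, was above 3 in WT cell 3 and in N1-CKO cells 4, 5 and 6. It was 3.24 in WT cell 3, 5.16 and 7.05 in N1-CKO cells 4 and 6, and 245 in N1-CKO cell 5, far above every other array. Xist, the RNA made from the inactive X chromosome of females, was detected in 7 of 7 WT cells and 6 of 11 N1-CKO cells. The 5 N1-CKO cells without it are the 5 with high 18S signal, and at least 1 of the Y-linked genes Eif2s3y, Kdm5d and Uty was detected in 3 of them and in 0 of 7 WT cells. Within the high 18S set, genotype and the animal of origin therefore cannot be told apart. Since no animal is given for a cell, they cannot be told apart in the low set or over all 18 cells either. Values within each 18S set are given for the main lists and for a part of the genes named; list medians within a subset of cells are over the same members as the median of all 18 cells.

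Of 18194 genes measured, 5972 were detected in at least 3 of the 18 cells and were compared. Each difference is a mean log2 signal in N1-CKO cells less the mean in WT cells, after signals under 25 (log2 of 4.64) were raised to 25. The median difference over these genes was 0.01, and the 5th to 95th percentiles ran from -2.57 to 2.54. The mean was at least 3 higher in N1-CKO cells for 149 genes (2.49% of those compared) and at least 3 lower for 172 (2.88%). The difference exceeded the SD of both groups for 3.73% of genes, and for 0 of the 5972 genes did the values of the 2 groups not overlap. Leaving out WT cell 3 gave 227 genes at least 3 higher. Such a difference joins how many cells had a transcript with its level in them, and is not a fold change within a cell. For a gene detected in no cell of a group, its size also rests on signal below the detection limit there.

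Most factors of the photoreceptor fate had a higher mean in N1-CKO cells, but Nrl had a lower one. Of 13 measured, 9 were detected in at least 3 cells; 7 had a higher and 2 a lower mean, where 50.2% of all genes were higher, and the median difference was 1.05. None was past 3 in either direction. Otx2, which chose the cells, is 1 of the 7. Over all 26 cells the same members had a median of 2.22.

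Nrl, the factor that directs a precursor to a rod, ran from 12.24 through 14.87 to 16.16 in WT cells and from 4.64 through 12.91 to 16.84 in N1-CKO cells. All 7 WT cells had it detected and N1-CKO cells 5 and 8 did not, and the groups overlapped over most of their range. The difference was -2.02, below the N1-CKO SD of 3.73, and it was -1.27 without N1-CKO cell 5.

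Crx log2 signal ran from 5.51 through 11.76 to 15.62 in WT and from 9.53 through 13.86 to 15.39 in N1-CKO cells, a difference of 1.46. WT cell 3 is the low WT cell, and the upper ends of the groups were close. Neurod1, a proneural-type factor of photoreceptor precursors, was detected in 6 of 7 WT and all 11 N1-CKO cells, with means of 13.35 ± 2.29 and 14.40 ± 1.07 (SD). Prdm1, which suppresses bipolar genes in photoreceptor precursors, was detected in 4 of 7 WT cells (57.1%, exact 95% interval 18.4 to 90.1) and 10 of 11 N1-CKO cells (90.9%, 58.7 to 99.8). These intervals overlap and cover counting error only. Rorb, a nuclear receptor that acts upstream of Nrl, was detected in 3 WT cells and 9 N1-CKO ones, with a difference of 1.75.

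The median of this list was 1.32 in the low 18S set and 0.002 in the high 18S set, and it was 0.48 without WT cell 3. Without that cell Crx differed by 0.36 and Neurod1 by 0.48, and without WT cell 11 Prdm1 differed by 0.54. Whether the sets differ was not tested. Prdm1 differed by 3.45 in the low and 0.00 in the high set, Neurod1 by 2.75 and -0.45, and Mef2d, a partner of Crx at photoreceptor enhancers, by 4.22 and -0.11.

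Windows before the start of transcription show the homeodomain letters TAATCC, or GGATTA on the other strand, which Otx2 and Crx both recognise (RefSeq, GRCm38.p6). Capitals mark each match, and both genes are shown because they are downstream members of this fate with matches. The Crx window is chr7:15879956-15880069 on the minus strand, with matches beginning 94 and 21 bases before the start, and the Sag window is chr1:87803573-87803618 on the plus strand.
Crx: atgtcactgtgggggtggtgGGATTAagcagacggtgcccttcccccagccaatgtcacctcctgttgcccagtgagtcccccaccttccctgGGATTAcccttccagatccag
Sag: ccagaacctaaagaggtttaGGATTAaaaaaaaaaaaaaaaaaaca
Over 300-base promoters and both strands, these letters lie in 5 of 13 photoreceptor factor genes (38.5%) and 9 of 20 rod genes (45%), against 8.14% of all 27025 genes. A match describes the letters, not binding.

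Rod outer segment and phototransduction genes were mostly dim in both groups. Of 27 measured, 12 were detected in 0 of the 18 cells and 10 in at least 3. Of these 10, 3 had a higher and 7 a lower mean, where 49.8% of all genes were lower, with a median of -0.50. Without WT cell 11 that median was 0.38, and without WT cell 3 it was -1.07. Sag, the rod arrestin, was detected in WT cells 6 and 13 and N1-CKO cells 1, 2 and 3, with a difference of -1.76 (-0.43 in the high and -3.73 in the low 18S set). Pde6g, the inhibitory subunit of the rod phosphodiesterase, was detected in 0 cells of WT and 3 of N1-CKO, with means of 5.44 ± 1.36 and 8.12 ± 3.85 (SD). It passed the filter through N1-CKO cells only. The count of rod genes detected per cell ran from 1 through 4 to 8 in WT and from 1 through 4 to 11 in N1-CKO cells.

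Of 10 cone genes measured, 3 were detected in at least 3 cells, with a median of 1.17, which was 0.098 without WT cell 9, 0.53 without WT cell 3 and 1.85 without WT cell 11. Gnb3, a G protein subunit of cones and ON bipolar cells, was detected in 4 of 7 WT cells and 9 of 11 N1-CKO ones, with a difference of 2.39, or 1.52 without WT cell 12. Of 18 bipolar genes measured, 2 were detected in at least 3 cells. Lhx4, a LIM homeodomain factor of cone bipolar cells and cone precursors, was detected in WT cell 9 and in N1-CKO cells 4, 6, 7, 8 and 10 with a difference of 2.91. Grm6 was not analysed here.

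Most members of the Notch list, which holds receptors, their partners, effectors and Id genes, had a lower mean in N1-CKO cells. Of 18 receptors and effectors measured, 13 were detected in at least 3 cells; 3 had a higher and 10 a lower mean, where 49.8% of all genes were lower. The median was -1.58, with Id3, Hey1 and Id1 past -3, where 2.88% of all genes were. Among members other than the Id genes, Hey1 alone was past -3. Hey1 was detected in WT cells only and so passed the filter through that group. WT cells had 5 to 12 of the 18 detected (median 7) and N1-CKO cells 1 to 7 (median 3). The groups overlapped between 5 and 7 members, and WT cells 3 and 6, closest to the Otx2 limit, held the 2 highest counts, 12 each. With Otx2 at the 95th percentile, which leaves both of them out, the median was -0.68. It was -0.49 in the high and -3.11 in the low 18S set, which holds WT cells 3 and 6, and -1.02 without WT cell 6. Over all 18 measured members the median was -1.29.

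Notch1 itself, the targeted gene, ran from 9.58 through 13.61 to 14.55 in WT cells and from 4.64 through 12.96 to 15.26 in N1-CKO cells. It was detected in 6 of 7 cells of WT and 8 of 11 of N1-CKO, and the difference of -1.94 is below the N1-CKO SD of 3.89. The sources used here do not say whether the probe set lies within the deleted part, so this signal does not check the deletion.

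Id3, which binds proneural-type factors and keeps them from DNA, had the lowest difference of any gene named, -6.12. It ran from 10.65 through 14.03 to 15.13 in WT cells and from 4.64 through 8.00 to 12.06 in N1-CKO cells. It was detected in all 7 WT cells and in N1-CKO cells 3 and 11, and the groups overlapped only where N1-CKO cell 3 exceeded WT cell 13. The difference was -5.18 in the high and -6.43 in the low 18S set, so the sets shared a direction. Id1, a related inhibitor, was detected in 6 of 7 cells of WT and 5 of 11 of N1-CKO with a difference of -3.57.

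Hey1, a repressor switched on by Notch, was detected in 5 of 7 WT cells (71.4%, exact 95% interval 29.0 to 96.3) and 0 of 11 N1-CKO cells (0%, 0 to 28.5). Both intervals cover counting error only and leave out any spread between animals. Log2 signal ran from 5.03 through 10.45 to 13.06 in WT and from 4.64 through 4.83 to 8.87 in N1-CKO cells. WT cells 9 and 13 lay within the N1-CKO range. The WT mean of Hey1 less the mean detection limit of the N1-CKO cells was -0.12, so its size rests on N1-CKO signal below that limit. Hes1, the main Notch effector of progenitors, was detected in 3 WT cells and N1-CKO cell 1 with a difference of -2.84. Hes5, a further effector, was detected in 4 cells of WT and 5 of N1-CKO; its difference was -3.57 in the low and -0.10 in the high 18S set. Heyl differed by -6.39 in the low set and by 2.21 in the high set. Rbpj, the DNA-binding partner of the receptor, was detected in 6 cells of WT and 3 of N1-CKO, and its difference of -1.14 was -3.05 in the high and 0.14 in the low 18S set. A second Rbpj probe set, detected in 2 WT and 6 N1-CKO cells, had a difference of 1.26.

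The Hes5 promoter is shown because its letters GTGGGAA, or TTCCCAC on the other strand, are a core recognised by Rbpj. The window is chr4:154960677-154960866 on the plus strand (RefSeq, GRCm38.p6), with matches beginning 226 and 83 bases before the start, in capitals.
Hes5: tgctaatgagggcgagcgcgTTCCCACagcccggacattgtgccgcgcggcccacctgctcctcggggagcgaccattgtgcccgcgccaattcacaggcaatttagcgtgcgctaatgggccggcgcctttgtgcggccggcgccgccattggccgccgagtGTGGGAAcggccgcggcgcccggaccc
In 300-base promoters, 2 of the 13 Notch pathway genes in the promoter table (15.4%) held the letters, Hes5 and Hey2, against 7.25% of all genes, 10% of 20 rod genes and 16.7% of 6 cone genes. These 13 are not the 13 members compared above, since Hes1, Hey1, Heyl, Id1 and Dtx4 were not matched there.

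Proneural factors, ligands and fringes had higher means on balance. Of 15 measured, 11 were detected in at least 3 cells. Of these, 9 were higher and 2 lower, where 50.2% of all genes were higher, with a median of 0.98 and none past 3. That median was 0.54 without WT cell 12, and 0.51 in the low and 1.17 in the high 18S set. Of the 11 members, 1 was detected in N1-CKO cells only and so passed the filter through that group. Over all 15 measured members the median was 0.75. Dll3, a ligand-like regulator of Notch in neurogenic cells, was detected in 0 cells of WT and 3 of N1-CKO. Those cells, N1-CKO cells 4, 5 and 9, are also the N1-CKO cells with Dll1, a Notch ligand, detected. Hes6, an antagonist of Hes1, was detected in 5 of 7 cells of WT and 10 of 11 of N1-CKO with a difference of 1.97, which was 0.80 without WT cell 9, and 2.58 in the high and 0.46 in the low 18S set. Sox4, a factor of newly born neurons, was detected in 6 of 7 WT cells and all 11 N1-CKO cells, with means of 12.39 ± 1.63 and 13.73 ± 0.85 (SD).

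**Figure D2:**
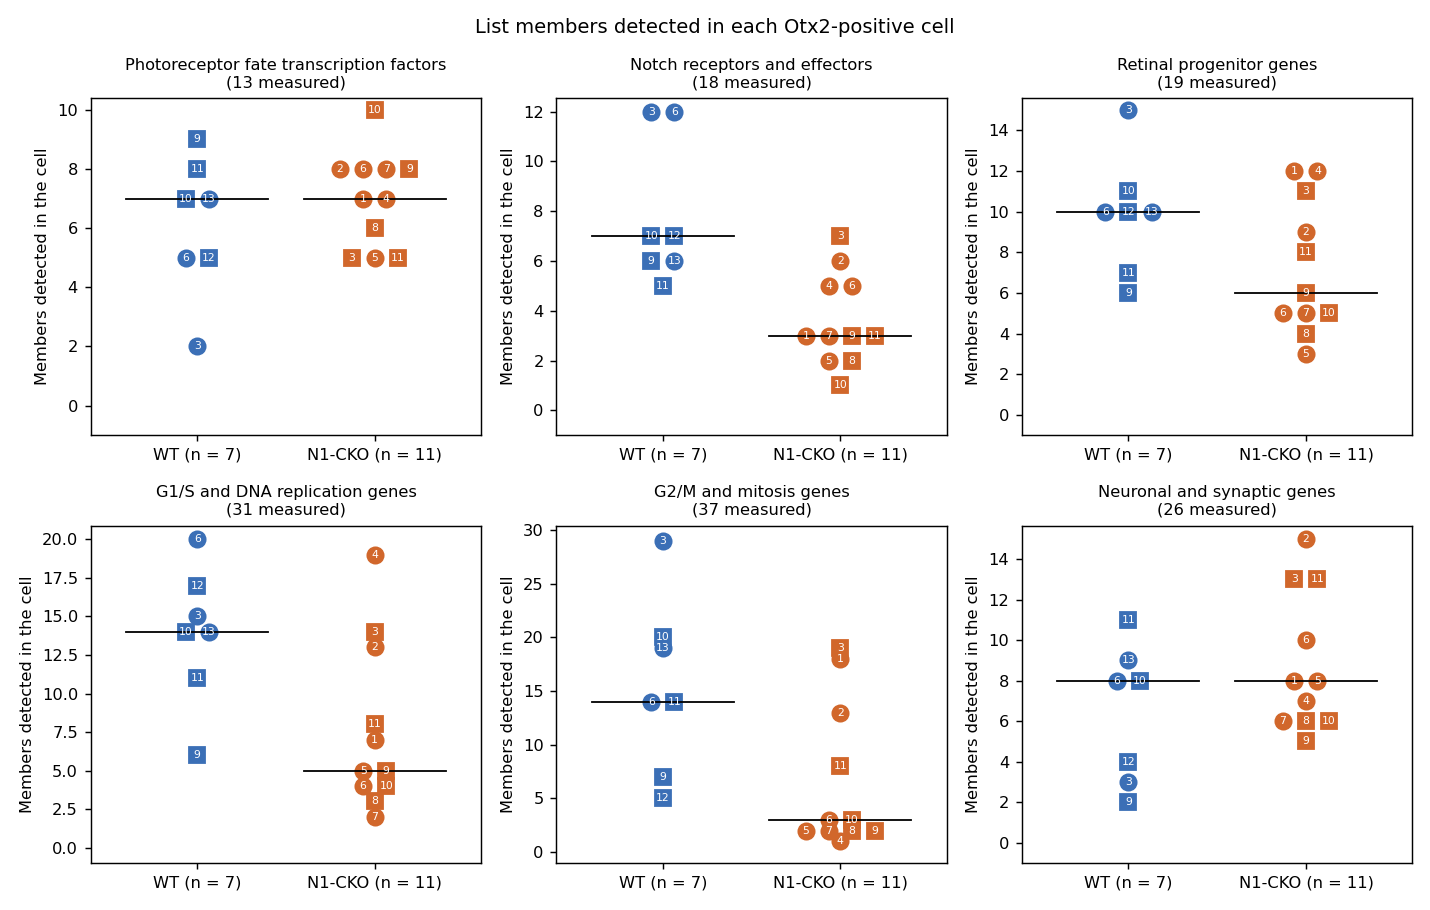
Number of list members detected in each Otx2-positive cell (points with cell numbers, squares for arrays with high 18S signal, circles for low; lines are medians). Counts for the list of Notch receptors and effectors range from 5 to 12 in WT and from 1 to 7 in N1-CKO cells.

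Progenitor genes were lower on balance over all 18 cells. Of 19 measured, 17 were detected in at least 3 cells; 4 had a higher and 13 a lower mean, with a median of -1.06 and 5 past -3, where 49.8% of all genes were lower and 2.88% were past -3. Without WT cell 3 there were 8 higher and 9 lower members with a median of -0.34, and with Otx2 at the 95th percentile it was 0.19. Of the 17 members, 1 was detected in WT cells only. Over all 19 measured members the median was -0.43. The 5 genes past -3 were Lhx2, Zfp36l1, Etv5, Crym and Ccnd1.

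Lhx2, a LIM homeodomain factor that keeps progenitors, ran from 12.07 through 13.52 to 15.33 in WT and from 4.64 through 10.80 to 14.13 in N1-CKO cells. It was detected in all 7 WT cells and in N1-CKO cells 1, 3, 4, 9 and 11, with a difference of -4.12. Those 5 N1-CKO cells lay within the WT range and the other 6 below it. Ccnd1, the cyclin that takes retinal progenitors through G1, ran from 14.72 through 15.19 to 16.87 in WT and from 4.64 through 13.80 to 15.92 in N1-CKO cells, and was detected in 7 and 9 cells. Etv5, a target of growth factor signals, was detected in 4 cells of WT and 0 of N1-CKO with a difference of -3.52. Sox2, Pax6 and Rax, which also define progenitors, differed by -0.25, -0.43 and -0.26.

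Genes of DNA replication were lower in N1-CKO cells. Of 31 measured, 22 were detected in at least 3 cells. Of these, 2 were higher and 20 lower, with a median of -2.63 and 8 past -3, against 49.8% of all genes lower and 2.88% past -3. Cells of WT had 6 to 20 of the 31 detected (median 14) and N1-CKO cells 2 to 19 (median 5). N1-CKO cells 1, 2, 3, 4 and 11, with 7, 13, 14, 19 and 8 members, lay within the WT range. WT cell 9, with 6, was the lowest WT cell, and the next was WT cell 11, with 11. The median was -1.17 in the high and -3.45 in the low 18S set. Of the 22 members, 1 was detected in WT cells only. Over all 31 measured members the median was -1.44.

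Rrm1, the large subunit of ribonucleotide reductase, ran from 11.08 through 13.34 to 13.95 in WT and from 4.64 through 9.12 to 14.21 in N1-CKO cells. All 7 WT cells and N1-CKO cells 1 to 5 had it detected, with a difference of -3.90. Gmnn, which prevents a second round of replication, was detected in 4 WT cells and N1-CKO cell 3, and Lig1, the replicative DNA ligase, in 5 WT cells and N1-CKO cell 6. Mcm7, a subunit of the replicative helicase, went the other way with a difference of 2.15, while Mcm3 of the same helicase differed by -3.67.

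Mitosis genes were lower too, with a split among cells within each group. Of 37 measured, 28 were detected in at least 3 cells; 2 were higher and 26 lower, with a median of -2.12 and 8 past -3, against 49.8% of all genes lower and 2.88% past -3. WT cells had 5 to 29 detected (median 14) and N1-CKO cells 1 to 19 (median 3). At least 8 were detected in 5 of 7 WT cells (71.4%, exact 95% interval 29.0 to 96.3) and 4 of 11 N1-CKO cells (36.4%, 10.9 to 69.2), a limit chosen with the values known. Of those cells, 4 WT and 4 N1-CKO cells also had at least 3 of the 4 photoreceptor factors detected. The median was -0.53 in the high and -4.36 in the low 18S set, -0.87 over arrays with a Gapdh ratio of at most 3, and -1.41 without WT cell 3. Of the 28 members, 3 were detected in WT cells only and so passed the filter through that group. Over all 37 measured members the median was -1.93.

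Ube2c, the ubiquitin-conjugating enzyme of the anaphase-promoting complex, ran from 5.27 through 14.20 to 15.72 in WT and from 4.64 through 5.64 to 13.26 in N1-CKO cells. Detection covered the WT cells other than 12 and N1-CKO cells 1, 2, 3, 6 and 11, with a difference of -4.46. Mki67, the proliferation marker, was detected in 6 of 7 cells of WT and 4 of 11 of N1-CKO, with means of 12.46 ± 2.46 and 8.90 ± 4.68 (SD). Cdca3, a trigger of mitotic entry, was among the 12 lowest differences of all genes at -4.56.

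The promoters of Ube2c and Mki67 are shown for the cell cycle element TTTGAA, read on the other strand as TTCAAA, by which the DREAM complex silences G2/M genes in cells that have stopped dividing. The windows are chr2:164769880-164769925 on the plus strand and chr7:135716452-135716515 on the minus strand (RefSeq, GRCm38.p6), with matches in capitals.
Ube2c: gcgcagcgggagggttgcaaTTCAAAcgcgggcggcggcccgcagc
Mki67: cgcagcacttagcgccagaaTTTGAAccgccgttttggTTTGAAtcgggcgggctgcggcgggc
These letters lie in 26 of 32 mitosis genes (81.2%) but in 4 of 26 replication genes (15.4%) and 20.2% of all genes.

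Cell cycle exit genes did not share a direction. Of 21 measured, 14 were detected in at least 3 cells, 8 higher and 6 lower, where 50.2% of all genes were higher. Their median was 0.20. Of the 14 members, 1 was detected in WT cells only and 1 in N1-CKO cells only, so each passed the filter through that group. Gadd45a, a growth arrest gene, was detected in 0 WT cells and in N1-CKO cells 2, 4, 5, 7 and 9, and its difference of 4.00 was the largest of the list. Cdkn1c, a cyclin-dependent kinase inhibitor of progenitors about to exit, was detected in 3 cells of WT and 0 of N1-CKO with a difference of -2.90. Btg1 and Btg2, antiproliferative genes, were detected in 6 of 7 WT and 11 of 11 N1-CKO cells each.

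**Figure D3:**
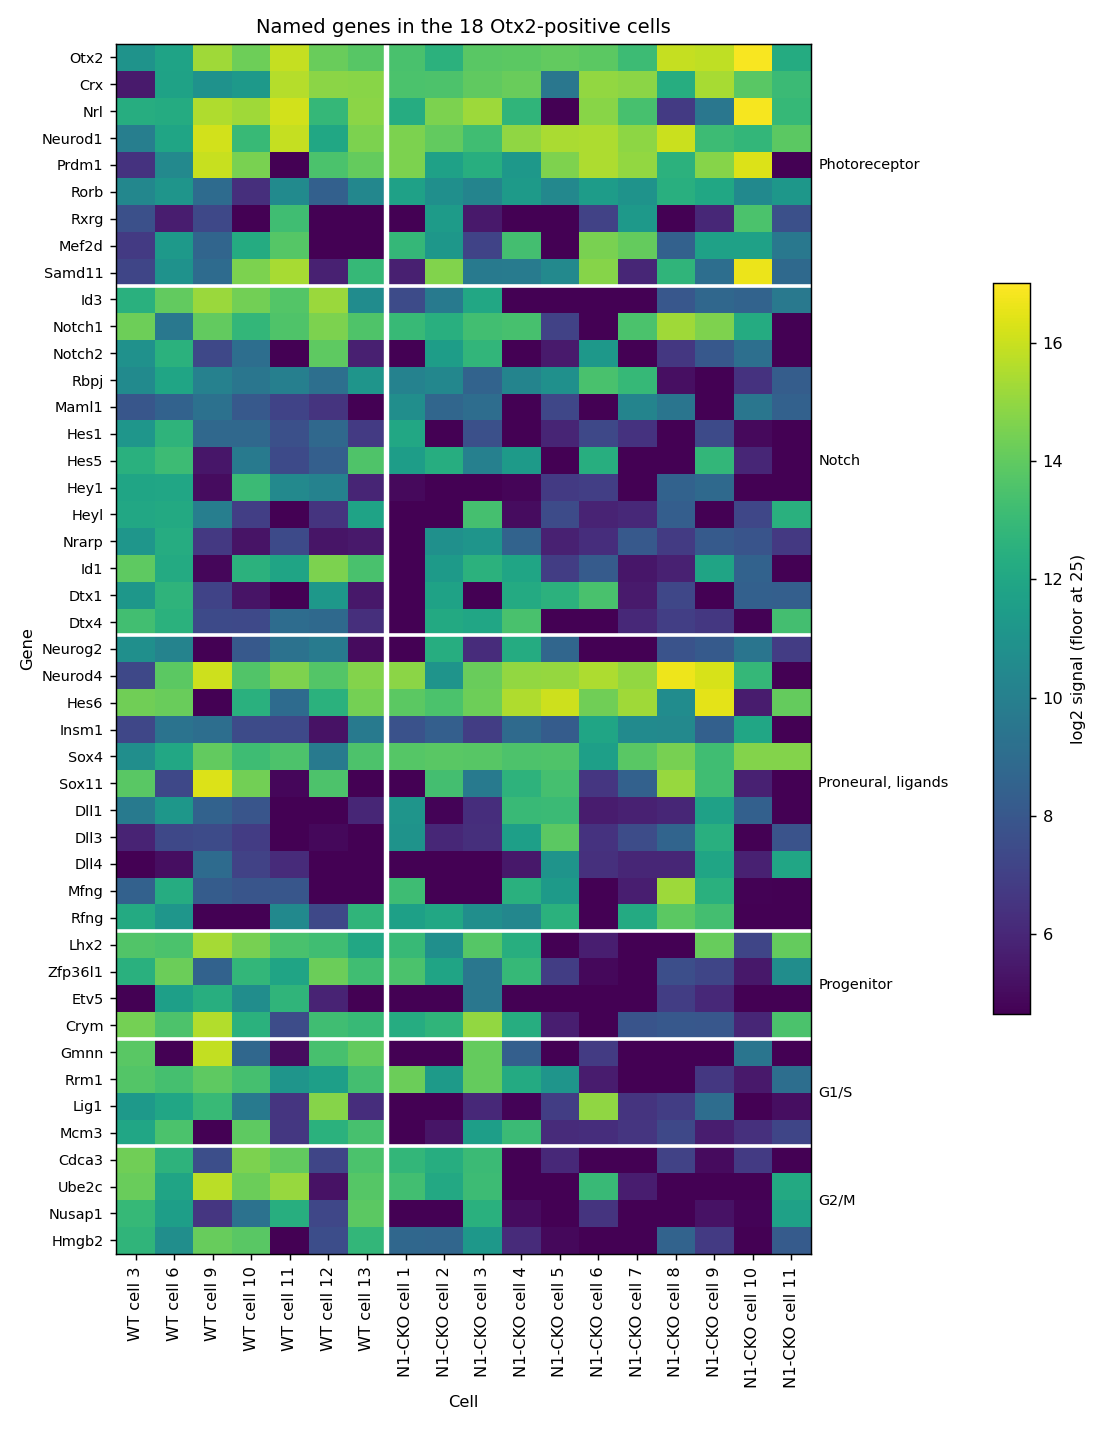
Log2 signal (colour, floor at 25) of named genes (rows, grouped by list) in the 18 Otx2-positive cells (columns). Id3 is bright in all 7 WT cells, and Neurod1 and Sox4 are bright in all 11 N1-CKO cells.

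Among neuronal and synaptic genes more were higher than lower: of 26 measured, 19 were detected in at least 3 cells, 13 higher and 6 lower, with a median of 1.17 and 1 past each limit of 3, where 50.2% of all genes were higher and 2.49% and 2.88% were past the limits. Without N1-CKO cell 2 the median was 0.72, and it was 0.70 in the high and 0.11 in the low 18S set. Of the 19 members, 2 were detected in N1-CKO cells only. Over all 26 measured members the median was 0.55. Syt1, the calcium sensor of synaptic vesicles, was detected in 2 of 7 cells of WT and 7 of 11 of N1-CKO, with means of 7.84 ± 3.37 and 11.01 ± 2.88 (SD). Its difference was 5.60 in the low and 0.70 in the high 18S set. Syp, a vesicle membrane protein, differed by 2.83. Dcx, a microtubule protein of migrating neurons, was the member past -3, detected in 3 WT cells and N1-CKO cell 2.

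Markers of other cells were checked. Of 25 genes of blood, vessel, microglia, pigment epithelium and other non-neural cells, 19 were detected in 0 of the 18 cells, and Kdr alone was detected in at least 3. Müller glia genes, many shared with progenitors, had a median of -1.26 over 8 members. Of these, 2 were higher and 6 lower, where 49.8% of all genes were lower. WT cells had 1 to 7 of 15 detected and N1-CKO cells 2 to 6. In the high 18S set the Müller median was -0.23, and it was -0.67 without WT cell 12. Over all 15 measured members it was -0.45. Gpr37, a receptor enriched in glia, was past -3 at -3.84. Of amacrine and horizontal cell genes 7 of 18, and of ganglion cell genes 1 of 10, were detected in at least 3 cells.

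**Figure D4:**
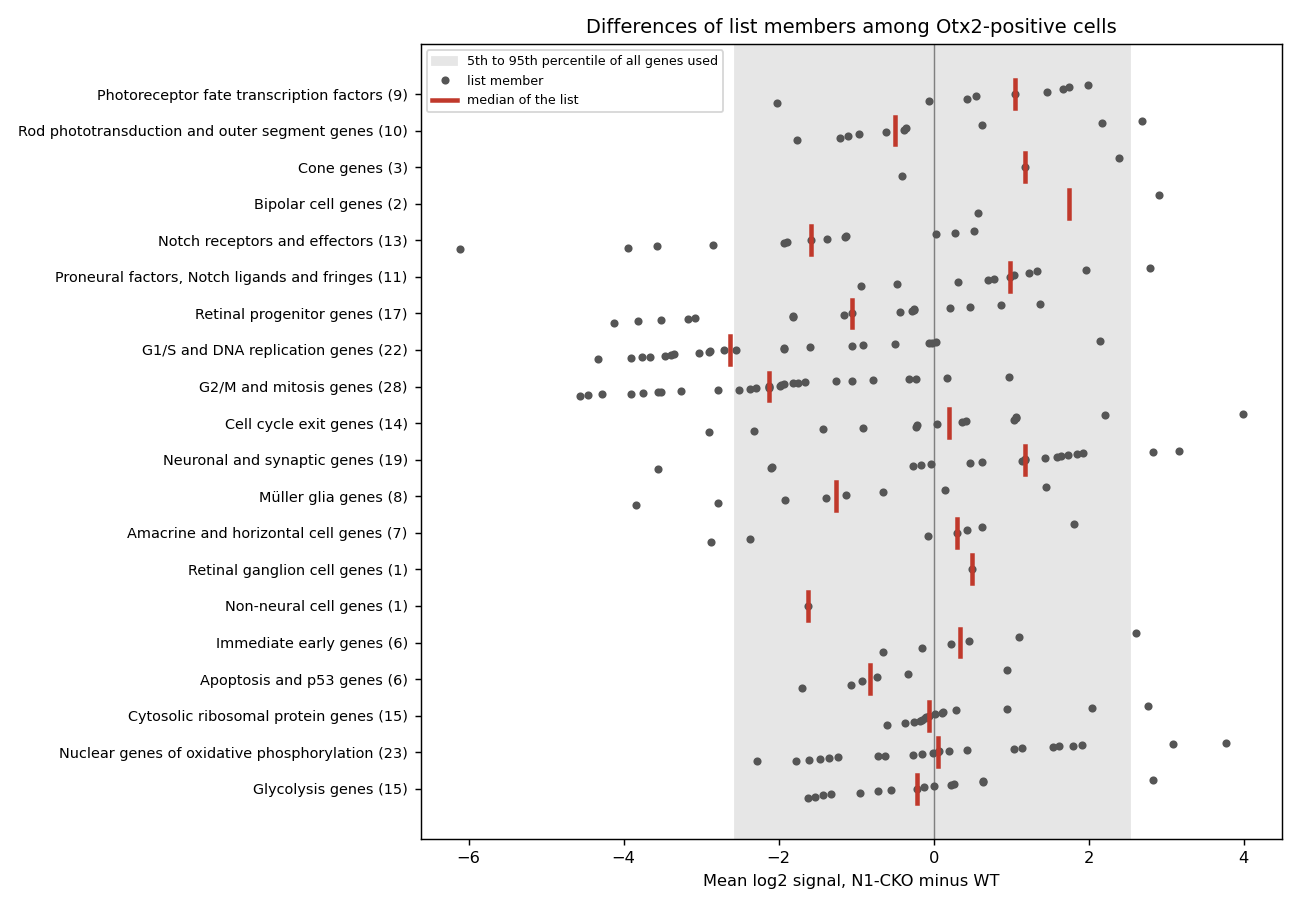
Difference of mean log2 signal, N1-CKO minus WT, for each list member detected in at least 3 Otx2-positive cells (points, with their number after each list), with list medians (red) and the 5th to 95th percentile of all 5972 genes (grey). Replication and mitosis genes have the lowest medians, -2.63 and -2.12.

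Across all genes, Meg3 had the highest difference among genes detected in at least 6 cells, 6.41. Meg3, a maternally expressed long non-coding RNA, ran from 4.64 through 5.89 to 15.49 in WT and from 4.64 through 14.71 to 17.15 in N1-CKO cells. WT cell 13 was the high WT cell and N1-CKO cell 4 the low N1-CKO cell, and they set the overlap. It was detected in 1 of 7 WT cells and 10 of 11 N1-CKO cells (14.3%, exact 95% interval 0.361 to 57.9, and 90.9%, 58.7 to 99.8). The intervals cover counting error only, and Meg3 was picked for its size in these same cells. Its difference was 8.07 in the high and 4.28 in the low 18S set. Of 10 other Meg3 probe sets, 3 had differences of 2.96, 5.45 and 5.75, and 3 had a lower mean in N1-CKO cells, each detected in at most 1 cell.

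The other 11 highest were Poldip2, Cdipt, Pafah1b2, Nlgn2, Aplp1, Nlk, Rnf113a2, Klc4, Hps4, Ss18l2 and Trappc11, from 5.31 down to 4.44. Nlgn2, an adhesion protein of inhibitory synapses, was detected in 1 cell of WT and 9 of N1-CKO, and Aplp1, a neuronal relative of the amyloid precursor protein, in 1 and 7. Klc4 is a light chain of the kinesin motor. Rnf113a2, Hps4, Ss18l2 and Trappc11 were detected in 0 WT and 6 N1-CKO cells each, so they passed the filter through N1-CKO cells only. Their N1-CKO means less the mean detection limit of the WT cells were -0.14, -0.31, 0.13 and 0.11. Their sizes therefore rest on WT signal below that limit.

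Below Id3, the lowest were Arhgap11a, Pmm1, Tmem242, Tubb4b, Mrpl41, Timm17a, Cdca3, Xist, Topbp1, Mocs2 and Mrpl40, from -5.91 to -4.47. Arhgap11a, a GTPase-activating protein of dividing cells, was detected in 6 cells of WT and 2 of N1-CKO, and Topbp1, a replication and checkpoint protein, in 5 and 1. Tubb4b, a beta tubulin, was detected in 7 of 7 cells of WT and 5 of 11 of N1-CKO. Mrpl41 and Mrpl40 are mitochondrial ribosomal proteins. These 24 genes were chosen for their size over the same cells, so their signs within the 18S sets are no independent support. Sizes differed between the sets: Cdipt was at 1.73 in the high and 8.20 in the low set, and Pmm1 at -7.71 and -1.49. Xist was at -9.86 in the high and 0.39 in the low set.

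**Figure D5:**
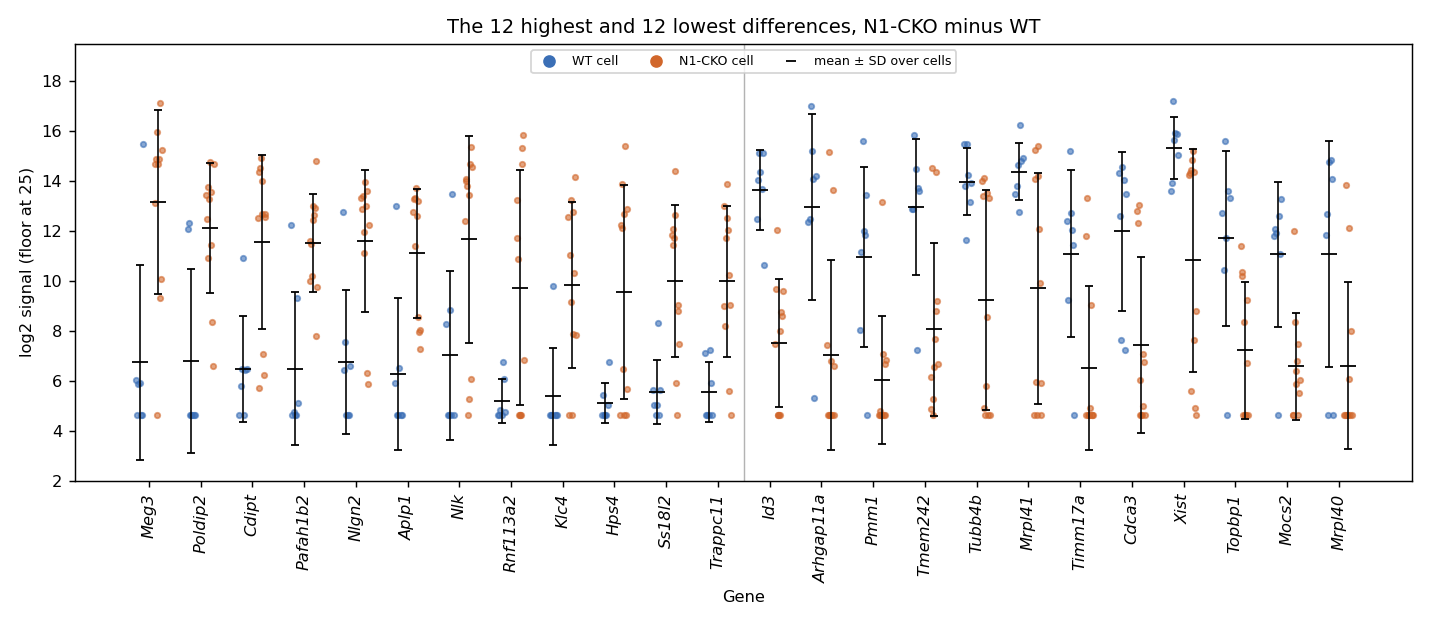
Log2 signal of the 12 genes with the highest and 12 with the lowest difference in each Otx2-positive cell (points), with mean ± SD over cells (bars; 7 WT and 11 N1-CKO cells). Every gene shown has at least 1 cell of one group within the range of the other.

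Whole profiles of the 2 groups were about as alike between as within groups. The median correlation between cells was 0.43 for 21 WT pairs, 0.43 for 55 N1-CKO pairs and 0.43 for 77 mixed pairs. It was taken over all probe sets other than array controls, most of them not detected in a given cell. All pairs share array scaling and the amplified 3′ ends.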

How the data were processed

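The authors deposited a linear intensity for each probe set, from MAS5 per the submitters' processing notes, and the sources used here give no version. Each array had a mean of 500.0 once 2% was trimmed at either end, so the values hold no measure of total RNA. Of 45101 probe sets, 34958 had 1 gene symbol in GEO's platform annotation, checked against RefSeq GRCm38.p6 names. Where a gene had several probe sets, the one brightest on average over the 26 cells (log2 scale) was read. Of 144 other probe sets of named genes, 34 had the opposite sign, 9 of them detected in at least 3 cells. Of 422 list genes, 35 were not analysed here.

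The rule for naming took the 12 highest and 12 lowest differences over genes with 6 or more of the 18 cells detected whose share of detected cells differed the same way. Every photoreceptor factor, Notch and proneural member detected in at least 3 cells, and up to 4 members of each other list with the largest differences, could also be named. Ccnd1, Mki67, Mcm7, Btg1, Btg2, Sox2, Pax6, Rax and the Y-linked genes were named outside this rule after their values were seen. The cells, members, lists and motifs were chosen with earlier results of these data known. The promoters printed were picked from genes whose promoters hold the motif; Sag was taken after Pde6g had no entry in the promoter table, so they are examples and not a sample of the lists.

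Python 3.11.15, numpy 2.4.6, pandas 2.3.3, scipy 1.17.1 and matplotlib 3.10.9 were used, and the steps were tested on simulated data. Alternatives were the floor, detection limit, filter, quantile normalization, probe set rule, medians, the Otx2 limit, 18S sets, Gapdh ratio, cells with Xist detected and leaving out each cell. List medians within a subset of cells, over unchanged members, were added after seeing the data. The number of arrays limits the precision.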

Additional observations from a re-analysis of the deposited data

Results flagged for a closer look

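Among the 7 WT cells, 1 cell lay far from the others for 24 of 134 measurements looked at. The rule marks about 1 in 20 by chance only where values follow a normal distribution. Many values here lie at the floor and many genes were picked for their differences, so no chance rate can be set beside this count. The 11 N1-CKO cells were not examined this way. Values are log2 signal unless given as counts. WT cell 13 was high for Meg3 (15.49, next cell 6.04), Abca4 (13.27) and Hps4 (6.76). WT cell 10 was high for Cdipt (10.94), Klc4 (9.80) and Nhlh2 (11.60) and low for Mocs2 (4.64). WT cell 3 was high for Nlgn2 (12.77) and Dusp1 (14.29) and low for Neurod4 (7.32). WT cell 6 was high for Aplp1 (12.99) and low for Notch1 (9.58). WT cell 11 was high for Ss18l2 (8.33) and Rxrg (13.24) and low for Tmem242 (7.22) and Crym (7.50). WT cell 12 was low for Arhgap11a (5.31) and Ube2c (5.27). WT cell 9 was low for Id1 (4.88), Zfp36l1 (8.54), Rpl10a (4.64) and Rpl19 (8.60), and had 10 cytosolic ribosomal protein genes and 4 glycolysis genes detected, where the next cells had 13 and 10.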

How the results depend on the processing

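With 1 sample per group no difference was tested, and the 7 WT cells limit every value. No paired analysis was possible because no test was made and cell numbers only name cells. The medians of the photoreceptor factor, cone, bipolar, Notch, proneural, replication, mitosis, neuronal, Müller and apoptosis lists kept their sign in all 30 alternatives. Most of these alternatives only leave out 1 cell, and a kept sign is not a kept size. The smallest medians were 0.026 for photoreceptor factors, 0.011 for cone genes, 0.33 for the proneural list and -0.10 for Müller genes. Here the detection filter was applied anew under each setting, so list membership moves with it. Medians given earlier for a subset of cells keep the members of the 18-cell comparison, a choice made after seeing the data. The cause of each shift below was not tested.

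Genes at least 3 higher and lower (149 and 172) numbered 43 and 62 with a floor of 100, 57 and 84 when a gene's probe sets were averaged, 645 and 587 with medians over cells, 300 and 300 in the high and 375 and 439 in the low 18S set, and 323 and 264 over cells with Xist detected, an alternative chosen after seeing the data. The higher count was 98 and 331 with Otx2 at the 80th and 95th percentile and 241 with a Gapdh ratio of at most 3. Leaving out 1 cell gave 147 to 227 higher and 162 to 223 lower.

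In the low 18S set the medians were 2.59 (bipolar), -3.23 (Notch), -4.52 (mitosis) and -2.70 (non-neural), and Xist was 0.39. In the high set they were 2.20 (ganglion), -0.85 (non-neural), -0.70 (immediate early) and -0.10 (Müller). Detection at the 80th percentile gave 0.60 (bipolar), -1.06 (ganglion) and -0.56 (non-neural), and no filter gave 0.32, -0.54 and -0.39. Otx2 at the 80th percentile gave 0.39 (bipolar), -0.82 (amacrine) and -2.46 (non-neural). Otx2 at the 95th gave 0.19 (progenitor), 0.08 (non-neural) and 1.29 (immediate early). Medians over cells gave -3.38 (non-neural). Cells with Xist detected gave -1.48 (amacrine) and -0.79 (ganglion). In the low 18S set no ganglion gene passed the filter.

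Leaving out 1 cell gave -1.07 to 0.53 (rod), -1.46 to 0.064 (progenitor, highest without WT cell 3, where the unchanged members gave -0.34), -2.30 to -0.92 (non-neural) and -1.33 to 0.67 (amacrine, lowest without N1-CKO cell 2).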

Other observations

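Housekeeping lists of the Otx2-positive cells had medians of -0.05 for 15 cytosolic ribosomal protein genes, 0.06 for 23 nuclear genes of oxidative phosphorylation and -0.21 for 15 glycolysis genes, where that of all genes was 0.01. The glycolysis median was -1.27 without WT cell 9. Single members stood apart. Uqcrc2, a core subunit of respiratory complex III, was detected in 4 of 7 cells of WT and 10 of 11 of N1-CKO, with means of 9.92 ± 4.17 and 13.70 ± 1.96 (SD). Cox5a, a subunit of cytochrome c oxidase, differed by 3.09. Uqcrq, also of complex III, differed by -2.28, which was -4.59 in the high and -0.16 in the low 18S set. Ldhb, a lactate dehydrogenase subunit, was detected in 2 of 7 cells of WT and 9 of 11 of N1-CKO with a difference of 2.83 (4.15 in the high and 0.78 in the low 18S set).

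Immediate early genes had a median of 0.34 over 6 members, which was 0.042 without N1-CKO cell 1 and 1.00 without N1-CKO cell 8. Dusp1, a phosphatase induced by stress and growth signals, was detected in 1 cell of WT and 5 of N1-CKO with a difference of 2.61, and Fos in 5 and 8 cells. Apoptosis and p53 genes had a median of -0.83 over 6 members, or -0.43 without WT cell 10, with Casp9, an initiator caspase, at -1.70.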
